A study of Mus musculus with 2 samples.

Results

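The genes described here are 6 genes of the primary (azurophil) granule and its precursors: Mpo, Elane, Prtn3, Ctsg, Prss57 and Cst7. They were taken by gene symbol from the bone marrow and spleen gene tables, and all 6 of the 6 were found in both, among 16428 genes with a read in at least 1 library. The libraries came from macrophages sorted from mice with MLL-AF9 acute myeloid leukaemia, a transplant model driven by a fusion of the MLL gene. GFP+ leukaemia cells had been injected at 500000 cells per mouse into C57BL/6J hosts aged 6 to 8 weeks that were not irradiated, so the hosts kept their own blood-forming cells. Mice survived for 25 to 30 days, and the cells were sorted at day 15, 1 library from bone marrow and 1 from spleen. Both groups share the leukaemia, the strain and the age range. No healthy mice were analysed here. The sources used here do not say how the cells were gated or how many mice stand behind each library.

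Primary granules are the first granules that a developing granulocyte fills, at the promyelocyte stage. Their messages are made in a short window, and later stages carry the finished proteins without the messages. Transcripts of Mpo, Elane, Prtn3, Ctsg and Prss57 are thus known as marks of granulocyte precursors rather than of mature neutrophils or macrophages. Myeloperoxidase (Mpo) makes hypochlorous acid. Neutrophil elastase (Elane), proteinase 3 (Prtn3), cathepsin G (Ctsg) and neutrophil serine protease 4 (Prss57) are serine proteases of the granule. Cystatin F (Cst7) is an inhibitor of cysteine cathepsins. It is not confined to granulocyte precursors, and cytotoxic lymphocytes are among the other cells that make it.

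The promoters are shown because Elane and Prtn3 are neighbours on chromosome 10 that were close in level and in fold, while Mpo and Ctsg lie on chromosomes 11 and 14. RefSeq (GRCm38.p6) gave a promoter for 5 of the 6 genes, Prss57 being the one without an entry. Each line below is the 150 bases before the annotated start, 5′ to 3′ on the gene's own strand. Capitals mark matches, on either strand, to GAGGAA (the PU.1 and ETS core), AACGG (a MYB core), GCAAT (a C/EBP half-site), TGTGGT (the RUNX core) or TATAA (the TATA box). The motifs were picked with the sequences in view, and no printed match overlaps another.
Elane, chr10:79886162-79886311, plus strand: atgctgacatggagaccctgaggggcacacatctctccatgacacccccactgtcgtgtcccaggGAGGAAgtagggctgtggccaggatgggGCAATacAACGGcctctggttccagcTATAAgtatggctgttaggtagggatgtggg
Prtn3, chr10:79879517-79879666, plus strand: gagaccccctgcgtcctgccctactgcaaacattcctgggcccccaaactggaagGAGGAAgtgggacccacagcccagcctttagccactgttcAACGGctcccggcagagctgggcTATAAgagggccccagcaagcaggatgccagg
Mpo, chr11:87793634-87793783, plus strand: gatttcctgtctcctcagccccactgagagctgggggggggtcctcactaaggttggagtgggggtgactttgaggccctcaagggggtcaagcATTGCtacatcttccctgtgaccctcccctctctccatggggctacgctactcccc
Ctsg, chr14:56102575-56102724, minus strand: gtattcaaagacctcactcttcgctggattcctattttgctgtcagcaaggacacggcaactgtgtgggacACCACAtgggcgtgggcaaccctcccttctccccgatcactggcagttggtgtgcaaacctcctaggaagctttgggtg
Cst7, chr2:150570265-150570414, plus strand: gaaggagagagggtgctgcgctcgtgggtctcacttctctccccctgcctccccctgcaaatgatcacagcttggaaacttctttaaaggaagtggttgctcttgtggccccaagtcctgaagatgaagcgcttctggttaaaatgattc

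Elane and Prtn3 held the same 3 matches in the same order on the same strand. GAGGAA began at base -85 from the start in Elane and at -95 in Prtn3, AACGG at -50 and -55, and TATAA at -31 and -32. Elane also held GCAAT at -57, between the GAGGAA and AACGG matches. Mpo had GCAAT on the opposite strand at -56, and Ctsg had the RUNX core on the opposite strand at -79. The 150 bases of Cst7 held none of the 5. In the 250 bases searched, of which the outer part is not printed, GAGGAA also occurred in Mpo at -247 and -224 and in Ctsg at -216, TATAA in Ctsg at -236 on the opposite strand, and TGTGGT in Cst7 at -188. Over 250 bases GAGGAA was thus in 4 of the 5 promoters, beside 23.3% of all RefSeq promoters, and AACGG was in 2, beside 14.5%. TATAA was in 3, beside 22.8%, GCAAT in 2, beside 23.1%, and TGTGGT in 2, beside 14.0%. The motifs were picked with these sequences in view, so the counts describe these promoters and support nothing further. Among all 32851 RefSeq promoters, 14.5% held GAGGAA in a window of 150 bases, 9.44% held AACGG, 13.9% held GCAAT, 8.40% held TGTGGT and 14.2% held TATAA. A match is a description of letters and not of binding, and binding was not measured.

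All 6 genes were higher in the marrow library. On the scale of CPM, which is the read count scaled to a common library size, Mpo was at 8543 CPM in marrow and 103 CPM in spleen. The serine proteases followed in the same order in both libraries except for the closest pair. Prtn3 was at 1832 CPM in marrow and 38.7 CPM in spleen. Elane was at 1746 CPM in marrow and 41.1 CPM in spleen. Elane and Prtn3 therefore changed places in spleen, where the exact Poisson 95% intervals of their levels overlapped (36.9 to 45.7 CPM for Elane and 34.6 to 43.1 CPM for Prtn3). Ctsg was at 821 CPM in marrow and 25.4 CPM in spleen. Cst7 was at 105 CPM in marrow and 15.3 CPM in spleen. Prss57 was the lowest in both, at 99.4 CPM in marrow and 2.25 CPM in spleen. In CPM, Cst7 and Prss57 had overlapping intervals in marrow (98.2 to 111 and 93.1 to 106 CPM) and separate ones in spleen (12.7 to 18.1 and 1.35 to 3.51 CPM). CPM does not correct for gene length, which is listed as 986 bases for Cst7 and 2693 for Prss57. Per length, as given below, Cst7 was higher than Prss57 in both libraries. Elane was listed above Prtn3 per length in both, with overlapping intervals, so their change of place holds in CPM only.

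**Figure D1:**
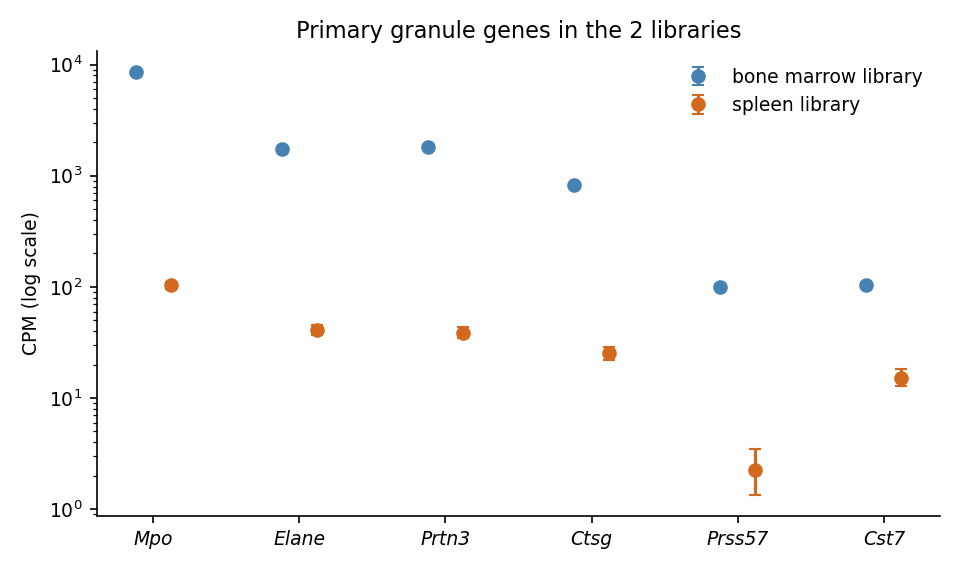
CPM of the 6 primary granule genes on a log axis, with 1 point for each library and bars for the exact Poisson 95% interval of the count (counting error only). Each marrow point lies above its spleen point, and the gap is smallest for Cst7 (105 against 15.3 CPM).

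The reads behind these levels were many in marrow and few in spleen. Mpo had 80352 reads in marrow and 870 in spleen, and Elane had 16427 and 348. Prtn3 had 17231 and 327 reads, and Ctsg had 7720 and 215. Cst7 had 984 reads in marrow and 129 in spleen. Prss57 rested on 935 reads in marrow and 19 in spleen, which makes its spleen level the least precise of the group. After scaling, the depth was 9405947 uniquely placed reads for marrow and 8457857 for spleen. By read count Mpo ranked 4 among the genes of the marrow library and 2390 among those of the spleen library. Elane ranked 29 in marrow and 5330 in spleen.

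The folds between the libraries ran from 6.86 to 83.0. Mpo was 83.0-fold higher in marrow, with an exact conditional binomial 95% interval of 77.7 to 88.9. Prtn3, Prss57, Elane and Ctsg formed a middle group. The fold was 47.4 (42.5 to 53.0) for Prtn3, 44.3 (28.2 to 73.8) for Prss57, 42.4 (38.2 to 47.3) for Elane and 32.3 (28.2 to 37.1) for Ctsg. Cst7 was 6.86-fold higher (5.70 to 8.31), below every other member. The intervals cover counting error only. There was 1 library for each tissue, hence neither replicates nor a test, and each fold compares these 2 libraries and not the tissues. In bulk RNA, fewer cells of a type and less RNA per cell cannot be told apart.

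Of the 6 genes, 6 passed the rule of at least 2-fold on log2(CPM + 1), which 14.1% of the 12970 measured genes passed in the direction of marrow. A gene counted as measured if 1 library had 10 reads or more and a level of 1 CPM or more. All 6 also passed a 4-fold rule, which 4.42% of measured genes did in that direction. The median log2 ratio of the 6 was 5.17, against 0.03 over all measured genes. Of all measured genes, 0 had a larger log2 ratio than Mpo. A larger log2 ratio than that of Ctsg was found for 13 genes, and than that of Cst7 for 240 genes. The genes were chosen as marks of granulocyte precursors with earlier results of these data known, so these counts describe them and support nothing further.

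The 6 genes together took 1.28% of all reads in marrow (exact binomial 95% interval 1.28 to 1.29) and 0.0231% in spleen (0.0221 to 0.0241). Summed, they were at 13146 CPM in marrow and 226 CPM in spleen, so that the summed fold was 58.3 (55.7 to 61.0). Without Mpo the summed fold was 37.5, and without Cst7 it was 62.0.

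The make-up of the reads of the 6 genes, not corrected for gene length, differed between the libraries. Mpo made up 65.0% of their reads in marrow and 45.6% in spleen. Cst7 went the other way, from 0.796% of the reads in marrow to 6.76% in spleen (5.68 to 7.98). Ctsg made up 6.24% in marrow and 11.3% in spleen. Elane made up 13.3% and 18.2%, and Prtn3 13.9% and 17.1%. Prss57 made up 0.756% in marrow, which lies inside its spleen interval of 0.601 to 1.55%.

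**Figure D2:**
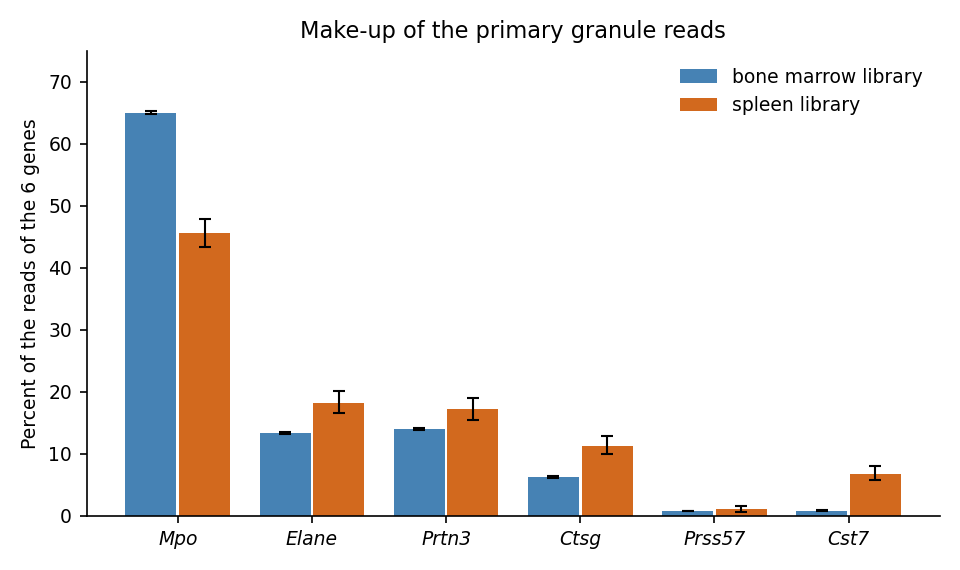
Each gene's percent of the reads of the 6 primary granule genes, as bars from 0 for each library, with exact binomial 95% intervals (counting error only). The Mpo bar is taller in marrow (65.0% against 45.6%), and the Cst7 bar is taller in spleen (6.76% against 0.796%). Gene length is not corrected for.

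Comparison of the members with each other needs no scaling between libraries, since it uses only their counts. For every 100 Mpo reads there were 20.4 Elane reads in marrow and 40 in spleen. The fold of Elane was 0.511 times that of Mpo (exact conditional 95% interval 0.450 to 0.581). Relative to Mpo the fold was 0.571 for Prtn3 (0.501 to 0.651), 0.533 for Prss57 (0.337 to 0.893) and 0.389 for Ctsg (0.334 to 0.454). That of Cst7 was 0.0826 (0.0678 to 0.101), with 1.22 Cst7 reads per 100 Mpo reads in marrow and 14.8 in spleen. Every interval lay below 1, so none of the 5 shared the fold of Mpo within counting error. With Elane as the reference, Prtn3 at 1.12 (0.956 to 1.30) and Prss57 at 1.04 (0.654 to 1.76) had intervals that held 1, Ctsg at 0.761 (0.638 to 0.908) did not, and Cst7 was at 0.162 (0.130 to 0.201). The 3 proteases whose genes lie near one another on chromosome 10 could thus not be told apart in fold at this depth. This was not particular to them. The wide interval of the Prss57 fold (28.2 to 73.8, with 19 spleen reads) also overlapped that of Ctsg on chromosome 14 (28.2 to 37.1).

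Per unit of gene length, the order of the members in spleen was not that in marrow. In RPKM, the deposited reads scaled to gene length and library total, Mpo led in marrow at 3248 RPKM, with Elane at 1855 and Prtn3 at 1821 RPKM. In spleen Elane was listed at 45.8 RPKM (41.1 to 50.8), Mpo at 41.0 RPKM (38.3 to 43.8) and Prtn3 at 40.3 RPKM (36.0 to 44.9), with overlapping intervals. Ctsg was at 799 RPKM in marrow and 25.9 RPKM in spleen. Cst7 was at 104 and 15.8 RPKM, and Prss57 at 36.1 and 0.854 RPKM. In marrow the intervals of Cst7 and Prss57 were separate (97.3 to 110 and 33.8 to 38.5 RPKM). By RPKM, Mpo ranked 6 among the genes of marrow, Elane 15, Prtn3 17 and Ctsg 91. Of the RPKM summed over the 6 genes, Mpo made up 41.3% in marrow and 24.2% in spleen. Elane made up 23.6% and 27.0% of that sum, and Cst7 1.32% and 9.34%.

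The RPKM of Prss57 carries a limit of its own. The deposited tables list the percent of each gene's length covered by reads. In marrow this was 99.7% for Mpo and Elane, 99.2% for Prtn3, 96.7% for Ctsg and 99.5% for Cst7, and 58.5% for Prss57. Of 252 other genes whose count and length were within 1.2 times those of Prss57, the median covered share was 97.7%, and 2 genes had a lower share. That window was chosen after the values were seen. The listed length of 2693 bases equals that of a GENCODE M21 transcript of Prss57 with 5 exons, whose last exon takes 1987 bases. Over the 1576 covered bases the level was 61.6 RPKM in marrow. In spleen 23.3% was covered, beside a median of 26.1% over 90 genes of like count and length. Over those 626 covered bases the spleen level was 3.67 RPKM, resting on 19 reads. The RefSeq spans of Fstl3 and Palm overlap that of Prss57. Fstl3 had 13 and 7 reads and Palm 1660 and 255, and the sources used here do not say whether the counting used strand, so reads of overlapping ends cannot be told apart.

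**Figure D3:**
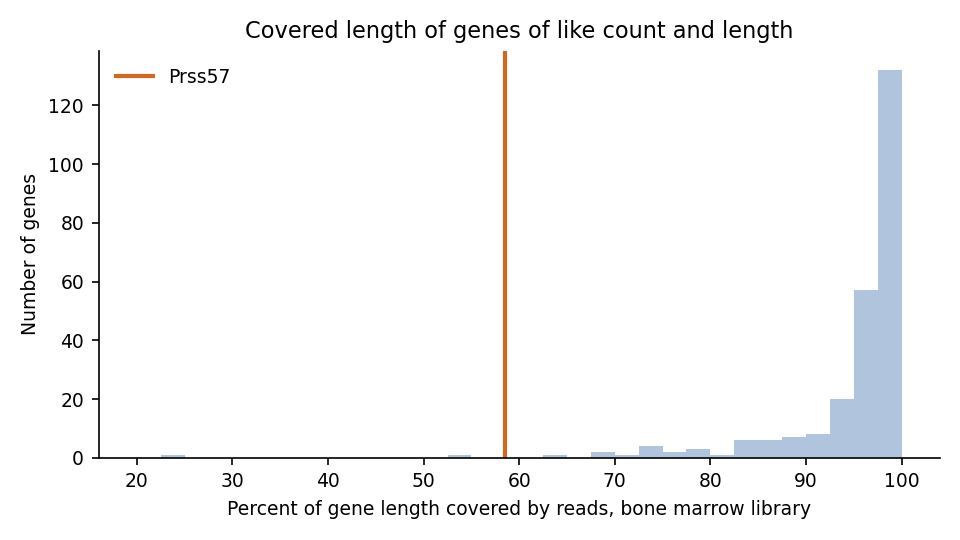
Number of genes by the percent of their length covered by reads in the marrow library, for the 252 genes with a count and length within 1.2 times those of Prss57. The vertical line marks Prss57 at 58.5%, against a median of 97.7% for the other genes.

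Specific granule genes were also higher in marrow, most by smaller folds than Mpo and the serine proteases, and genes of mature neutrophils were so in part. Specific granules are filled after primary granules, and gelatinase granules and the receptors of mature neutrophils come later still. Of 13 specific granule genes, 13 were at least 2-fold higher in marrow, with folds from 2.74 to 34.1 and a median of 17.9. The share of all measured genes past 2-fold was 14.1% towards marrow and 14.6% towards spleen. Ngp was at 8892 CPM in marrow and 452 CPM in spleen, a fold of 19.7 (19.1 to 20.3). Fcnb, a ficolin of granulocyte precursors, had the highest fold of that list at 34.1 (28.6 to 41.0), and its interval overlapped those of Ctsg, Prss57 and Elane. For 11 of the 13 genes the interval lay wholly below those of Mpo, Prtn3, Prss57, Elane and Ctsg. Of 9 measured gelatinase granule and mature neutrophil genes, 5 were higher in marrow, 1 in spleen (Fpr1, a formyl peptide receptor) and 3 stayed within 2-fold. Their largest fold was 4.57 (3.68 to 5.72), for the membrane protease Mmp25, and the interval of each of the 9 lay below those of the same 5 members. Csf3r, the G-CSF receptor, was at 258 CPM in marrow and 63.1 CPM in spleen. Ly6g, the usual surface mark of mature mouse neutrophils, had 0 reads in both libraries. It belongs to a family of similar genes, and only uniquely placed reads were counted. A gene missing from a table was given 0 reads, and what gives the 0 of Ly6g was not tested.

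Summed over the list, the specific granule genes were at 28358 CPM in marrow and 2381 CPM in spleen, which gives a fold of 11.9 (11.7 to 12.1). Without Cybb and Lyz2, which macrophages also express, the fold was 17.8. The gelatinase granule and mature neutrophil genes summed to 605 and 212 CPM, a 2.86-fold difference (2.71 to 3.02). For every 100 specific granule reads there were 46.4 primary granule reads in marrow and 9.47 in spleen. Without Cybb and Lyz2 these were 52.5 and 16.0. Cst7, with its fold of 6.86, stood below the median of the specific granule list and above all 9 measured genes of the mature list.

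**Figure D4:**
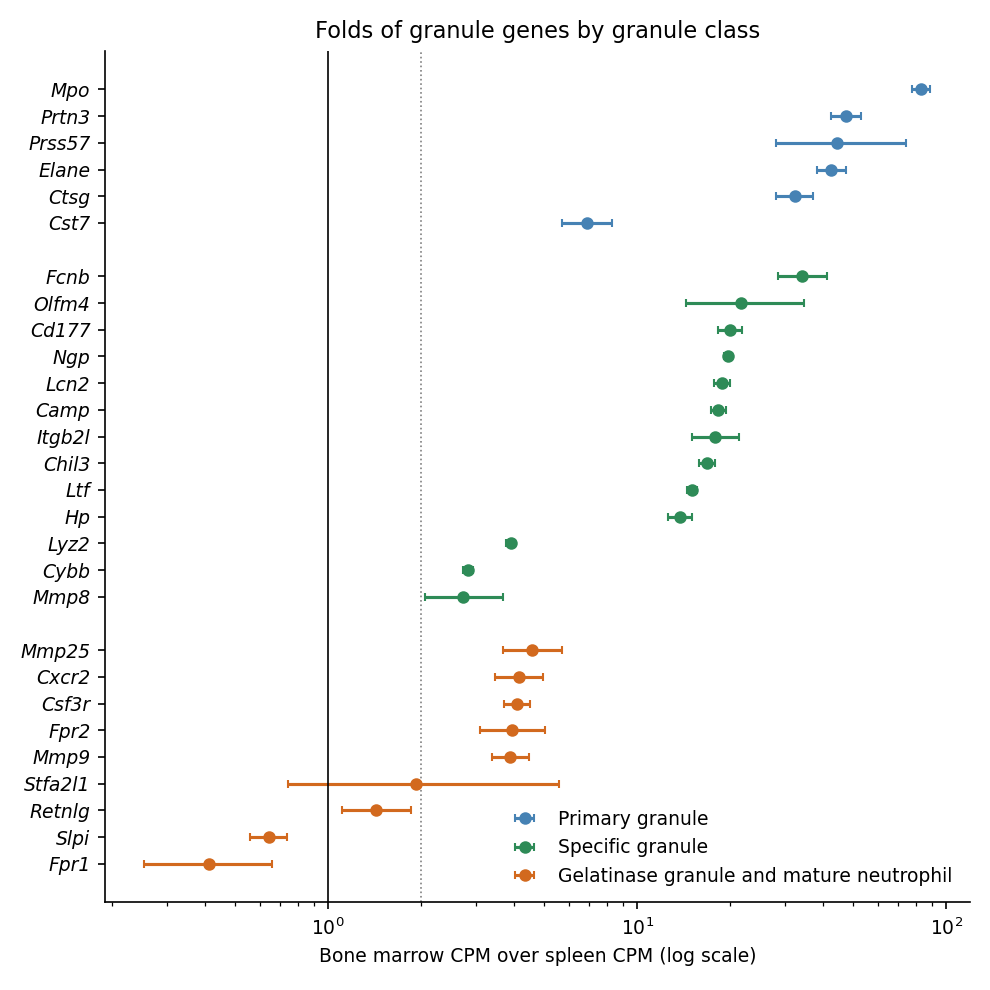
Ratio of marrow to spleen CPM for each measured gene of 3 granule classes, on a log axis, with exact conditional 95% intervals (counting error only); the solid line marks equal levels and the dotted line 2-fold. Mpo, Prtn3, Prss57, Elane and Ctsg lie from 32.3 to 83.0, most specific granule genes between 13.7 and 21.7, and the mature neutrophil genes at 4.57 or below.

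Cebpe, Cebpa and Myb were among the transcription regulators that were higher in marrow. Of 11 listed transcription regulators of granule genes, 5 were at least 2-fold higher in marrow, 2 passed it in spleen and 4 stayed within 2-fold, beside 14.1% and 14.6% of all measured genes in the 2 directions. The median log2 ratio was 0.88. Cebpe, which drives the step from primary to specific granules, was at 200 CPM in marrow and 7.21 CPM in spleen, a fold of 27.7 (21.5 to 36.4). Cebpa, which commits progenitors to the granulocyte and monocyte line, was at 183 and 23.6 CPM, a fold of 7.75 (6.69 to 9.01). Myb, a progenitor factor, was at 569 and 94.0 CPM, a fold of 6.05 (5.62 to 6.53). Spi1, which encodes PU.1 and is also a macrophage factor, was at 284 and 184 CPM, within 2-fold. Lef1 and Irf8 were higher in spleen. Irf8, a factor of B cells, dendritic cells and monocytes, reached 420 CPM in spleen against 169 CPM in marrow. Lef1, which T cells also express, reached 114 CPM in spleen against 38.9 CPM in marrow. Marker lists of T cells, B cells and dendritic cells summed to 1432, 4194 and 928 CPM in spleen and 176, 390 and 110 CPM in marrow, and their part in these values was not tested.

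The machinery that matures and holds the granule proteins gave counts near those over all measured genes. Of 10 genes of granule maturation and sorting, 2 were higher in marrow, 1 in spleen and 7 within 2-fold, beside 14.1% of all measured genes higher in marrow and 14.6% higher in spleen. The median log2 ratio of this list was 0.35. Cd63, a tetraspanin of primary granules and lysosomes, was at 328 CPM in marrow and 22.0 CPM in spleen, a fold of 14.9 (12.9 to 17.4). Rab27a, which steers granule release, was at 209 and 54.0 CPM. Srgn, the proteoglycan that packs granule proteases, was at 679 and 347 CPM. Ctsc, the peptidase that activates the granule serine proteases, went the other way, with 191 CPM in spleen and 72.9 CPM in marrow. Other leukocytes use the same enzyme for granzymes. Of 11 genes of haem synthesis and protein folding that Mpo relies on, 2 were higher in marrow, 0 in spleen and 9 within 2-fold, which is also near those shares. Alas1, the first enzyme of haem synthesis outside red cells, was at 371 and 42.2 CPM, a fold of 8.80 (7.89 to 9.84). Calr, a chaperone of Mpo in the endoplasmic reticulum, was at 1821 and 677 CPM.

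The inhibitors of these proteases gave counts near those over all measured genes. Of 10 serpins and related inhibitors, 5 were measured. At least 2-fold, 1 was higher in marrow and 0 in spleen, beside 14.1% and 14.6% of all measured genes. Serpinb1a, which blocks elastase, proteinase 3 and cathepsin G inside the cell, was at 592 CPM in marrow and 122 CPM in spleen, a fold of 4.84 (4.53 to 5.18). The other 4 lay within 2-fold, each with the higher value in spleen, such as Slpi, a secreted elastase inhibitor, at 57.5 CPM in spleen and 36.9 CPM in marrow. The cathepsins that Cst7 inhibits, and their relatives, were higher in spleen more often. Of 13 measured cysteine cathepsins and cystatins, 6 were higher in spleen, 1 in marrow and 6 within 2-fold, beside 14.6% of all measured genes higher in spleen. The list had a median log2 ratio of -0.68. Ctss reached 537 CPM in spleen against 161 CPM in marrow, and Ctsh reached 269 CPM against 73.4 CPM. Macrophages, B cells and dendritic cells express both.

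Relatives of the members are made by other leukocytes. Among haem peroxidases, Epx, the eosinophil peroxidase, was at 169 CPM in marrow and 2.36 CPM in spleen, a fold of 71.4 (46.1 to 117). Lpo, lactoperoxidase, had 24 reads in marrow and 0 in spleen. The ratio is 7.19 when 3 reads are allowed for the count of 0, and the lower limit of the exact interval is 5.41. Of 8 measured leukocyte proteases outside the neutrophil line, 3 were higher in marrow, 2 in spleen and 3 within 2-fold. Over all measured genes, 14.1% were higher in marrow and 14.6% in spleen. Prss34 and Mcpt8, basophil serine proteases, had folds of 68.8 (57.6 to 82.8) and 53.3 (41.3 to 70.0) towards marrow. Gzma, a granzyme of cytotoxic lymphocytes, reached 85.5 CPM in spleen against 18.8 CPM in marrow, while the other 3 measured granzymes (Gzmb, Gzmk and Gzmm) lay within 2-fold. The other protease higher in spleen was Cma1, a mast cell chymase, with 26 reads in spleen and 6 in marrow. Cpa3, a carboxypeptidase of mast cells and basophils, had a fold of 45.3 (32.8 to 64.6) towards marrow.

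**Figure D5:**
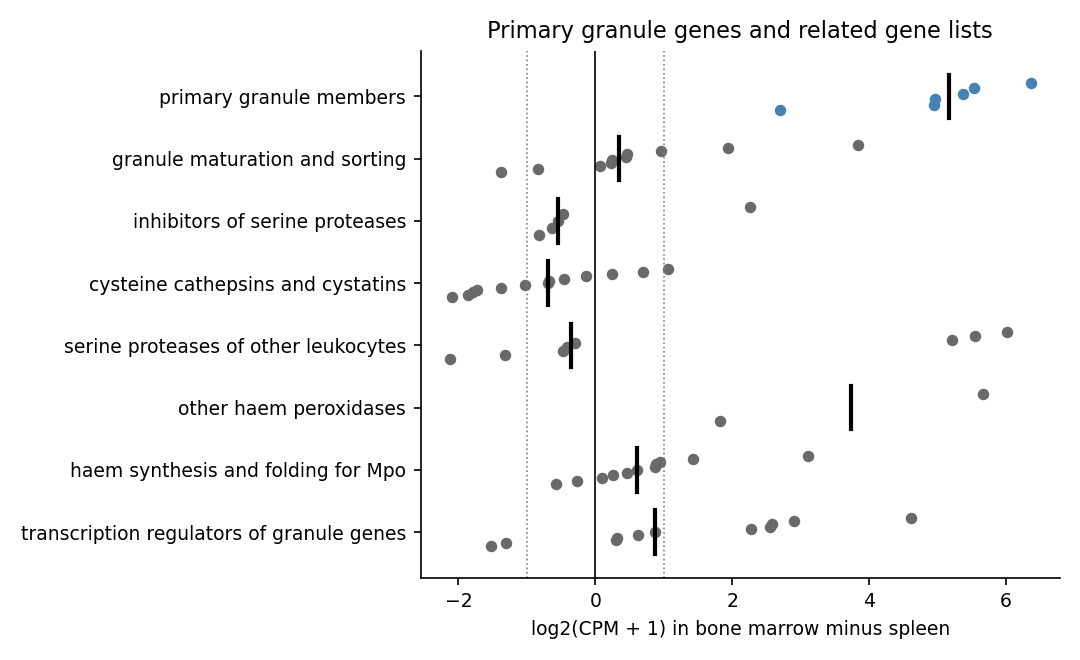
Difference of log2(CPM + 1) between marrow and spleen for each measured gene (points) of the 6 primary granule genes and 7 related lists, with each list's median as a thick bar; dotted lines mark 2-fold. The primary granule genes lie between 2.70 and 6.36, while the medians of the maturation, inhibitor and cathepsin lists lie at 0.35, -0.54 and -0.68.

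Among the 5 protein-coding genes on each side of each member in RefSeq order there were 44 distinct genes that are not members, of which 25 were measured. Of these, 8 were at least 2-fold higher in marrow, 0 in spleen and 17 within 2-fold, beside the 14.1% and 14.6% of all measured genes. Their median log2 ratio was 0.45. On chromosome 10, Plppr3, directly before Prtn3, was at 154 CPM in marrow and 20.3 CPM in spleen. Cfd, directly after Elane, had 4 reads in marrow and 0 in spleen. Ptbp1, a splicing factor between Prss57 and Prtn3, was at 742 and 417 CPM. On chromosome 11, Lpo lies next to Mpo and Epx lies beyond Mks1. On chromosome 14, Mcpt8 lies next to Ctsg on one side, and the 5 granzyme genes on the other side had 0 reads in both libraries.

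Over these 2 libraries, the genes nearest in level to the members were sought among 9483 genes that reached 10 CPM and 100 reads in 1 of them, by the distance between log2(CPM + 1) values. Camp, a specific granule peptide, was nearest to Mpo at a distance of 1.63, and Cd177, a neutrophil surface protein, was nearest to Elane and Prtn3 at 0.76 and 0.87. Adgrg1, an adhesion receptor, was nearest to Ctsg at 0.16. Lipg, endothelial lipase, was nearest to Prss57 at 0.07, with 96.0 CPM in marrow and 2.36 CPM in spleen. Sgms2, a sphingomyelin synthase, was nearest to Cst7 at 0.10, with 103 and 14.2 CPM. With 2 values a gene, nearness is a description of level only.

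Marker lists of other cells place these values. Their counts stand beside 14.1% of all measured genes higher in marrow and 14.6% higher in spleen. The 15 macrophage genes were all measured, with 0 higher in marrow, 8 higher in spleen and 7 within 2-fold. They summed to 661 CPM in marrow and 1430 CPM in spleen, so the 6 primary granule genes exceeded the macrophage list in marrow and lay below it in spleen. Csf1r, the receptor that macrophages depend on, was at 197 and 364 CPM, and none of the 15 was at 0. Of 7 stem and granulocyte-monocyte progenitor genes, 5 were higher in marrow and 2 within 2-fold. Ms4a3, which marks progenitors committed to granulocytes and monocytes, was at 386 CPM in marrow and 7.09 CPM in spleen, a fold of 54.4 (42.1 to 71.4). Hoxa9 and Meis1, known targets of MLL fusions that normal progenitors also express, were in that list with folds of 7.35 (4.95 to 11.3) and 8.30 (6.23 to 11.3). Of 7 basophil and mast cell genes, 7 were higher in marrow, as were 4 of 5 eosinophil genes. The other eosinophil gene, the chemokine receptor Ccr3, was higher in spleen, at 30.3 CPM against 5.85 CPM in marrow. Among 11 NK and cytotoxic lymphocyte genes, which share Cst7, 1 was higher in marrow, 5 in spleen and 5 within 2-fold, with sums of 465 CPM in marrow and 642 CPM in spleen. The 1 was Nkg7, a granule membrane protein, at 195 and 91.4 CPM. Of 5 megakaryocyte genes, 3 were higher in marrow, with folds of 21.4 (12.6 to 39.6) for Pf4 and 19.4 (15.8 to 24.0) for Itga2b. Of 6 monocyte genes, 2 were higher in marrow, and of 6 erythroid genes 1 was higher in spleen. The erythroid count in spleen and the NK count in marrow were near the shares over all measured genes. The part of precursors, macrophages, lymphocytes or leukaemia cells in the primary granule values was not tested.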

How the data were processed

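RNA sequencing was described for 2 libraries, 1 per tissue. The authors' deposited columns, per the file headers, were a raw count of uniquely placed reads per gene, the length of the gene, the percent of it covered by reads, and RPKM. The sources used here do not name the aligner, counter, build or annotation. A gene missing from a table was given 0 reads. Tables were joined on the Entrez identifier, with symbols from RefSeq (GRCm38.p6), which matched 16379 of 16428 genes. Counts were scaled with TMM factors of 0.977 for bone marrow and 1.02 for spleen (edgeR 4.0.16, R 4.3.3). Each fold is a CPM ratio. Its 95% interval (exact conditional binomial, Clopper-Pearson) covers counting error only, because each tissue has 1 library. Reads amplified without molecular identifiers can repeat 1 molecule, and the interval does not allow for this. No test was made between libraries. Log2 ratios use log2(CPM + 1), so changes of low genes come out too small. Simulated Poisson counts with 200 changed genes were used to check the code. The members and the 21 gene lists were chosen with earlier results of these data known. Named genes were all members, from each list the 3 with the largest log2 ratio and the most abundant, positional neighbours and the 3 nearest genes by level. Ctss, Irf8, Lef1, Ly6g, Nkg7, Spi1, Cybb, Lyz2, Hoxa9, Cma1, Fpr1, Ccr3, Gzmb, Gzmk and Gzmm fall outside that rule and were named after their values were seen. Other scalings were DESeq2 1.42.0 size factors, library totals, deposited RPKM and TMM factors from genes outside the lists. Other settings were pseudocounts of 0.1 and 5, removal of the floor or its rise to 10 CPM, and a 4-fold rule.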

Additional observations from a re-analysis of the deposited data

How the results depend on the processing

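The fold of each of the 6 genes stayed inside its own interval under the 3 distinct other scalings (18 of 18 values). Deposited RPKM gives the same folds as library totals, because gene length cancels. All 6 were at least 2-fold higher in marrow under each of the 9 alternatives tried. Their median log2 ratio was 5.41 with a pseudocount of 0.1 and within counting error otherwise. Their share of marrow reads was 1.33% when the reads of the marker lists were left out of the total. Relative folds depended on the reference: with Elane in place of Mpo they were 1.12 for Prtn3 and 1.04 for Prss57, above 1 instead of below it, 0.761 for Ctsg and 0.162 for Cst7, which follows from the smaller fold of Elane. Chosen after seeing the data, the summed fold was 62.0 without Cst7, 37.5 without Mpo, and 17.8 for the specific granule list without Cybb and Lyz2.

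Of 360 list counts under the alternatives, 331 were within 1.5 times the count reported. With the 4-fold rule, 1 maturation and sorting gene was higher in marrow and 0 in spleen. The cathepsin and cystatin list had 0 and 1, the other leukocyte proteases had 1 in spleen, and the haem peroxidases and the haem and folding list each had 1 in marrow. The regulators had 0 in spleen, the mature neutrophil list 2 in marrow and 0 in spleen, and the macrophage list 3 in spleen. The monocyte list had 1 in marrow, the NK list 0 in marrow and 1 in spleen, and the erythroid list 0 in spleen. The single cathepsin higher in marrow became 0 with deposited RPKM, a pseudocount of 5 or a floor of 10 CPM, and 2 with a pseudocount of 0.1. With a pseudocount of 5 or a floor of 10 CPM, 1 other leukocyte protease was higher in spleen, 1 haem peroxidase in marrow (1 also with deposited RPKM), and 0 mature neutrophil genes in spleen. The erythroid count in spleen was 0 with those settings and with deposited RPKM. The cause was not tested. Over 191 other genes with a fold, from the gene lists, positional neighbours and nearest genes, 562 of 573 folds stayed inside their intervals. The window for genes like Prss57 was also set after seeing the data: at 1.1 times it held 65 genes with a median covered share of 98.0% in marrow, none below Prss57, and at 1.5 times 1049 genes with 97.4%, 11 of them below. Depth limits Prss57, with 19 reads in spleen. No paired analysis was possible because each tissue has 1 library.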
